A study of Mus musculus with 27 samples.

Results

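WT P14+ T cells were compared between the naive state and the cytotoxic T lymphocyte (CTL) of day 5, over all genes of the deposited tables. The comparison holds 6 of the 27 RNA-seq libraries of the study, 3 of naive cells and 3 of CTLs, taken by the genotype and time in the sample labels. The receptor of P14+ cells is a transgene and recognizes gp33, a peptide of lymphocytic choriomeningitis virus. All mice were on a Rag2-/- C57BL/6 background, so that no T cell receptor or antibody gene could be rearranged, and females and males 6 to 10 weeks old were used. Naive cells came from lymph nodes and had no treatment in culture. CTLs were grown from the cells of lymph nodes and spleens with irradiated splenocytes and soluble anti-CD3 antibody at 2 µg/ml, received IL-2 at 100 U/ml after 48 h, and were kept in doxycycline at 2 µg/ml until day 5. Mice, controls included, drank doxycycline before the cells were taken.

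The 3 WT libraries of cells activated for 12 h, and the naive and CTL libraries of Lin28bTg P14+ and Let-7Tg P14+ mice (3 of each), were used beside the WT comparison. The Lin28b transgene blocks the maturation of let-7 microRNAs, and the let-7g transgene is induced by doxycycline, which WT and Lin28bTg cells received as well. The Lin28b transgene is expressed from the thymus on, and the promoters of both transgenes are not given in the sources used here. The 12 h cells were stimulated in another way, with anti-CD3 at 2 µg/ml and anti-CD28 at 5 µg/ml and without irradiated splenocytes, so that 12 h and day 5 are not points of 1 culture. Stage, culture, splenic origin and any difference in the preparation of the libraries cannot be told apart in this design.

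Naive CD8 T cells are small, long-lived cells that recirculate between blood and lymph nodes and divide rarely. A transcription factor circuit of Tcf7, Lef1, Klf2 and Foxo1 keeps the genes for lymph node homing and IL-7 survival signals on. After antigen contact and IL-2, the cells grow, change their metabolism to aerobic glycolysis and biosynthesis, divide many times and become CTLs, which kill target cells with perforin and granzymes.

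The 6 libraries held 14120576 to 18848031 counted reads, and 12909 of the 35275 genes had enough reads for the test. Levels are given as FPKM, fragments relative to the length of the gene and the counted reads of the library, and the 3 values of a group are those of replicates 1, 2 and 3 in that order. A change is the difference of log2(scaled FPKM + 0.5), CTL minus naive, with the SE of the fit in limma, and rose or fell means a Benjamini-Hochberg adjusted p under 0.05. Fold changes of genes with few reads are understated on this scale. Correlations between libraries over the tested genes were 0.989 to 0.995 within naive cells, 0.980 to 0.992 within CTLs and 0.842 to 0.859 between the stages. CTL replicate 3 stood apart from its group, with 222 genes more than 2-fold above and 271 more than 2-fold below both other CTL libraries, against 32 to 78 in CTL replicates 1 and 2. Naive replicate 1 had 106 genes more than 2-fold above both other naive libraries.

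The label was checked against T cell genes. Cd3e, a chain of the CD3 signaling complex, had 330.0, 359 and 351 FPKM in the naive libraries and 377, 318 and 293 FPKM in the CTL libraries, and the groups overlapped. Cd8a, the co-receptor of cytotoxic T cells, had 525, 523 and 509 FPKM in the naive libraries and 174, 184 and 233 FPKM in the CTL libraries and fell by 1.29 ± 0.13 on the log2 scale (limma adjusted p = 6.5e-05). Its partner Cd8b1 changed by -1.45 ± 0.08. Cd8 transcripts stayed far above those of Cd4, the co-receptor of helper T cells, which had 9.62, 3.61 and 3.13 FPKM in the naive libraries and 0.122, 0.323 and 0.744 FPKM in the CTL libraries. Cd3e did not pass the test, whereas Cd247, the zeta chain of the complex, fell by 0.68 ± 0.08.

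Markers of cells other than T cells moved with the stage as well. The summed level of 14 dendritic cell markers was 1082, 746 and 636 FPKM in naive libraries and 159.7, 124 and 132 FPKM in CTL libraries, and 12 of the 14 fell. Most of the CTL sum was Bst2, with 361, 224 and 172 FPKM in naive libraries and 95.3, 86.9 and 93.2 FPKM in CTL libraries. The list also counts Ccr9, which naive CD8 T cells carry. Of 22 myeloid markers, the 12 with enough reads all fell, and the sum of the list was 72.7, 54.2 and 43.5 FPKM in naive cells and 7.11, 6.73 and 4.05 FPKM in CTLs. Both sums were highest in naive replicate 1. Lysozyme 2 (Lyz2), a macrophage and granulocyte gene, had 32.5, 25.005 and 19.2 FPKM in naive cells and no read in any CTL library, which made it at least 186-fold lower against 3 reads per library. The stromal and endothelial list summed to 3.95, 2.93 and 3.73 FPKM against 0.789, 0.53 and 0.318 FPKM, with both tested genes lower in CTLs. The erythroid and platelet list, of which 5 of 8 tested genes fell and 1 rose, summed to 296, 246 and 159 FPKM in naive cells and 7.49, 5.95 and 4.32 FPKM in CTLs. Of the B cell markers, the 5 with enough reads all fell. Ms4a1 and Pax5 were at or near 0 in every library, and most of the list's sum (434, 453 and 460.3 against 244, 191 and 234 FPKM) was Ighm. Transcripts of other cell types were thus measured in the naive libraries, and most were lower in CTLs. Natural killer cell receptors are given further below. How far cells other than T cells contribute to the naive level or the decrease of any other gene was not tested. Fewer cells of a type and less RNA per cell cannot be told apart in bulk RNA.

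**Figure D1:**
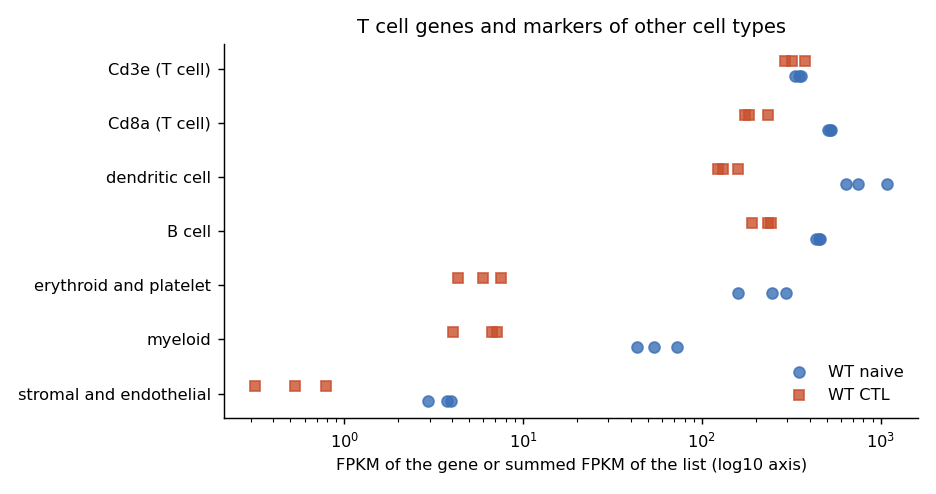
FPKM of the T cell genes Cd3e and Cd8a and summed FPKM of 5 marker lists of other cell types in each WT naive (circles) and WT CTL (squares) library, on a log10 axis. Cd3e overlapped between the stages, while Cd8a and the sums of all 5 lists were lower in the 3 CTL libraries.

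Between naive cells and CTLs, 4279 genes rose (33.1% of those tested) and 4050 fell (31.4%), so that 64.5% of the tested genes changed. At least 2-fold changes that passed the test were found in 2028 genes that rose (15.7%) and 1605 that fell (12.4%). Changes of at least 16-fold were seen in 210 genes that rose and 60 that fell. The groups did not overlap for 72% of all tested genes. In CTLs 91 tested genes had no read in any library, and in naive cells 18.

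On the log2(scaled FPKM + 0.5) scale the largest rise among genes with a mean of at least 10 FPKM in CTLs was that of granzyme B (Gzmb, ENSMUSG00000015437, chr14:56258838-56262260 on GRCm38), the serine protease with which CTLs start apoptosis in target cells. Gzmb had 11.3, 3.995 and 2.05 FPKM in the naive libraries and 2307, 2355 and 2142 FPKM in the CTL libraries, a change of 8.90 ± 0.46 (limma adjusted p = 2.2e-06). Every CTL library was more than 100-fold above every naive library. Il2ra, the high-affinity chain of the IL-2 receptor, rose by 7.10 ± 0.32 from 2.18, 0.961 and 1.57 to 210.3, 199 and 405 FPKM. Ctla4, the inhibitory receptor that competes with Cd28 for its ligands, rose by 8.001 ± 0.22 and reached 273, 231 and 149 FPKM. Genes of other kinds were among the 10 largest rises as well. Ifitm1, a membrane protein that restricts virus entry, had 0.437, 0.9755 and 0.78 FPKM in the naive libraries and 396, 513 and 127 FPKM in the CTL libraries and was lowest in CTL replicate 3. Asns, the enzyme that makes asparagine, had 1 read over the naive libraries and 118, 117 and 89.5 FPKM in CTLs. The read totals gave a ratio of 4703-fold (95% counting interval 844 to 185780.0). The other 5 of the 10 largest rises were the cell cycle genes Ube2c, Pclaf and Pimreg, the histone gene Hist1h2ap, and Fads2, a desaturase of fatty acid synthesis (7.18, from 0.295, 0.188 and 0.235 to 109, 97.6 and 96.0 FPKM). Reads of Hist1h2ap may be shared with other histone genes of near-identical sequence, and its level is uncertain.

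Among the 10 largest decreases, 5 were markers of other cells (H2-Aa, Cd74, H2-Eb1, Hbb-bs and Hba-a2), and Ccr9, a lymphocyte receptor, is on the dendritic list too. Fscn1, an actin-bundling protein that is abundant in mature dendritic cells, had 249, 166 and 198 FPKM in the naive libraries and 0.411, 0.292 and 0.239 FPKM in the CTL libraries. Apol7c, an apolipoprotein L gene, had 71.9, 43.7 and 30.7 FPKM in naive cells and no read in CTLs, at least 571-fold lower. All naive libraries lay above all CTL libraries for both genes, and naive replicate 1 was highest. The part of other cells in these decreases was not tested. Slfn5, a Schlafen gene that type I interferon induces, fell by 7.65 ± 0.26, from 215, 153 and 111 to 0.367, 0.0731 and 0.274 FPKM. Dtx1, a Notch pathway regulator linked to T cell anergy, had 124, 135 and 144 FPKM in the naive libraries and 0.359, 0.149 and 0.122 FPKM in the CTL libraries. Ccr9, a homing receptor for the small intestine that naive CD8 T cells carry, had 39.1, 61.7 and 63.2 FPKM in the naive libraries and 0.0696, 0.156 and 0.0707 FPKM in the CTL libraries. Slfn5, Dtx1 and Ccr9 were at 3.15, 4.14 and 2.18 FPKM on average in the 12 h cells, between the levels of the other stages.

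**Figure D2:**
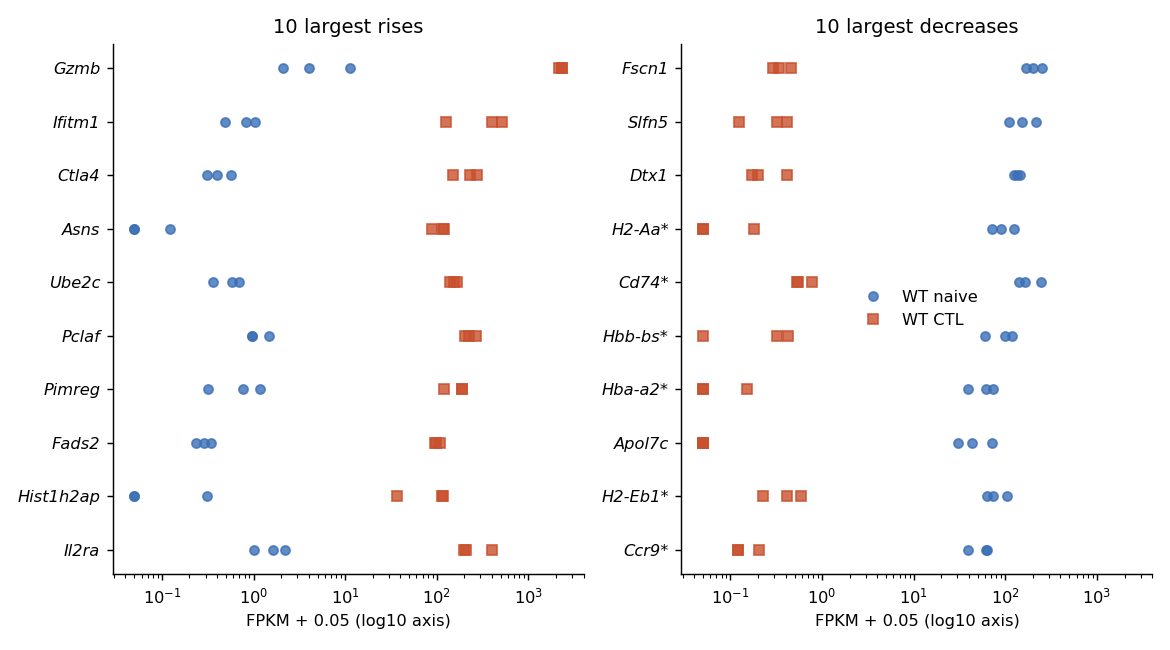
FPKM + 0.05 on a log10 axis of the 10 genes with the largest rise and the 10 with the largest decrease between WT naive cells (circles) and WT CTLs (squares), 1 point per library; genes marked with an asterisk are on a marker list of another cell type. For all 20 genes the groups did not overlap, as the rule that chose them required.

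The most abundant transcript was the same at both stages, while part of the top set changed. Eef1a1, the elongation factor that brings tRNAs to the ribosome, was the highest gene of both stages, with 11794, 12535 and 11606 FPKM in the naive libraries and 12924, 13313 and 11733 FPKM in the CTL libraries. The other top genes of naive cells were Actb, Rpl13a, mt-Co1 and Rplp1. In CTLs, the glycolytic enzyme Gapdh and the chaperone Hsp90ab1 took the places of the ribosomal protein genes. Gapdh had 918, 863 and 911 FPKM in the naive libraries and 5690.2, 4576 and 4391 FPKM in the CTL libraries, a change of 2.55 ± 0.10. Hsp90ab1 had 2059, 1923 and 1938 FPKM in the naive libraries and 4124, 3996 and 3849 FPKM in the CTL libraries, a change of 1.13 ± 0.07.

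Granzymes A, B and C rose and perforin fell. Of 21 genes of the cytotoxic granule, 16 were tested, of which 10 rose (against 33.1% of all genes), 3 fell and 3 did not pass. Gzma, a granzyme of memory and effector cells, had 51.5, 35.4 and 20.7 FPKM in the naive libraries and 613, 752 and 80.5 FPKM in the CTL libraries, a change of 3.41 ± 0.77. Gzmc had 13.4, 8.64 and 5.61 FPKM in the naive libraries and 179, 317 and 19.0 FPKM in the CTL libraries, a change of 3.61 ± 0.90. Both were lowest in CTL replicate 3 and yet above all naive libraries. Gzmd, Gzme and Gzmf, neighbors of Gzmb in the granzyme cluster, were nearly confined to CTL replicates 1 and 2 and had too few reads for the test, with 8.02, 15.5 and 0.394 FPKM for Gzmd and 2.83, 8.16 and 0.118 FPKM for Gzme in CTLs and 0 in every naive library. The granzymes of the cluster share sequence, and reads may have been lost or split between them. Serpinb9, the inhibitor that protects the killer cell from its own granzyme B, rose by 1.79 ± 0.32, and Rab27a and Lamp2, of granule docking and membranes, rose by 1.01 ± 0.12 and 1.02 ± 0.17.

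Prf1, the pore-forming protein that lets granzymes into the target, had 53.4, 52.4 and 54.0 FPKM in the naive libraries and 23.2, 26.5 and 14.8 FPKM in the CTL libraries, a change of -1.22 ± 0.18 (limma adjusted p = 6.4e-04). No CTL library reached the level of a naive library. Ctsw, a protease of CTLs, and Unc13d, which primes granules for fusion, fell by 0.97 ± 0.11 and 0.73 ± 0.10. Several granule genes were already high in the naive WT libraries, among them Ctsw at 433, 343 and 345 FPKM. These libraries also held RNA of Ncr1, a natural killer cell receptor, at 8.75, 4.17 and 2.82 FPKM. The part of natural killer cells in the naive level of granule genes was not tested. At 12 h Prf1 was at 60.3, 141 and 75.3 FPKM and Gzmb at 811, 344 and 729.8 FPKM.

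Some cytokine transcripts of the first activation hours, among them Ifng, were low in both end states. Ifng, the main antiviral cytokine of CD8 T cells, had 1.89, 0.469 and 0.0586 FPKM in the naive libraries and 0.354, 0.527 and 0.629 FPKM in the CTL libraries, and 227, 294 and 169 FPKM at 12 h. Its groups overlapped between naive cells and CTLs. The chemokine Xcl1 reached 3492 FPKM on average at 12 h, and its CTL mean was 0.339 FPKM. Il2, Il3 and Csf2 had too few reads in both states. Tnf and Lta, with means of 89.1 and 102 FPKM at 12 h, were present at both end states. Tnf had 11.1, 13.1 and 10.95 FPKM in naive cells and 23.5, 30.4 and 9.37 FPKM in CTLs and did not pass. Lta rose by 0.79 ± 0.11, from 10.5, 11.1 and 12.0 to 17.6, 18.4 and 18.8 FPKM. Xcl1 fell from 15.2, 5.69 and 2.71 FPKM in naive cells (-3.02 ± 0.54), and Ccl5, a chemokine stored by memory and effector cells, from 109, 71.5 and 61.3 to 6.31, 5.48 and 7.95 FPKM (-3.38 ± 0.23). The 9 chemokines included 5 with enough reads. Of these, 4 fell and none rose, with a median change of -2.74 where the median over all genes was 0.01. Of 13 tested cytokines and death ligands 6 rose and 2 fell, against 33.1% and 31.4% of all tested genes. Fasl, the death ligand, rose by 4.40 ± 0.23 to 23.95, 32.7 and 16.004 FPKM. Il10, an immunosuppressive cytokine, had no read in naive cells and 7.29, 12.4 and 5.42 FPKM in CTLs, at least 57.6-fold higher. Tgfb1 rose by 1.01 ± 0.11 from an already high level of 126 FPKM.

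Transcription factors of effector cells rose and those of naive cells fell. Among 24 tested effector factors 15 rose and 4 fell, with a median change of 1.40. Zbtb32 and Bhlhe40, repressors induced by T cell receptor signals, rose by 6.57 ± 0.16 and 5.06 ± 0.28. Prdm1, which encodes Blimp-1, the driver of terminal effector differentiation, had 0.545, 0.419 and 0.44 FPKM in the naive libraries and 10.7, 10.4 and 7.17 FPKM in the CTL libraries, a change of 3.42 ± 0.17. Id2, the partner factor of effector fate, rose from 28.6, 19.0 and 16.05 to 169, 235 and 102 FPKM, while Id3, its counterpart in memory precursors, fell from 105, 149.9 and 142 to 11.4, 16.7 and 29.5 FPKM. The groups were well apart for both. Eomes and Tbx21, the T-box factors of cytotoxic cells, rose by 1.68 ± 0.25 and 1.59 ± 0.31. Irf4, Nfil3, Hif1a and Irf8 also rose (3.91, 4.32, 2.58 and 1.99). Tox, a factor known from exhausted cells, fell by 3.26 ± 0.17, from 22.4, 23.0 and 22.4 to 1.58, 1.44 and 2.28 FPKM. Nr4a3 and Zeb2 fell as well (-1.22 and -1.31), and Nr4a2 rose (1.21).

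Of 18 factors of naive and memory cells, 14 fell, 1 rose (Gfi1, 1.02 ± 0.17) and 3 did not pass, with a median change of -1.11. Tcf7, which encodes TCF-1, the factor of naive and stem-like cells, had 675, 727 and 786 FPKM in the naive libraries and 159, 116 and 173 FPKM in the CTL libraries, a change of -2.18 ± 0.16. Klf2, which drives the genes of lymphocyte exit and homing, fell from 351, 379 and 486 to 43.3, 21.3 and 48.7 FPKM (-3.36 ± 0.30), and Klf3 changed by -3.52 ± 0.29. Lef1, Foxo1 and Bcl11b fell by smaller amounts (-0.99, -1.32 and -1.24). Bcl6 and Sox4 ended at 1.10 and 0.454 FPKM. At 12 h Klf2, Tcf7 and Foxo1 were at 9.78, 101 and 10.4 FPKM, each below its mean of 37.8, 149.8 and 17.3 FPKM in CTLs.

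Genes of the lymphoid homing list fell nearly throughout. The list also holds naive T cell genes that are not homing receptors, such as Cd5, Cd6, Dapl1, Actn1 and Il6ra. Of 25 genes 23 fell, 21 of them at least 2-fold, none rose, and the median change was -2.25. Ccr7, the receptor for the lymph node chemokines, had 236, 214 and 216 FPKM in the naive libraries and 37.6, 22.2 and 49.7 FPKM in the CTL libraries, a change of -2.55 ± 0.26. S1pr1, the exit receptor, fell from 146, 145 and 142 to 16.6, 10.4 and 18.9 FPKM (-3.12 ± 0.21). Il6ra, Itgae and Dapl1 changed by -5.44, -5.00 and -4.29, Il6ra from 61.1, 54.2 and 53.4 to 0.415, 0.143 and 2.63 FPKM. Il7r, the receptor for the survival cytokine IL-7, fell from 73.7, 58.3 and 61.2 to 24.9, 21.3 and 16.97 FPKM (-1.49 ± 0.14). Ly6c2, a marker of memory cells, did not pass, with 350.0, 75.1 and 58.3 FPKM in the naive libraries and 82.1, 68.9 and 140.4 FPKM in the CTL libraries. Among genes of entry into inflamed tissue, the chemokine receptor Ccr2 rose by 2.81 ± 0.56, and Fut7 and Gcnt1, the enzymes that make selectin ligands, by 2.66 ± 0.15 and 2.36 ± 0.29. In all, 11 of 24 genes of tissue homing and adhesion rose and 8 fell, against 33.1% and 31.4% of all tested genes. Itga4 (-1.69) and Selplg (-0.60) were among those that fell.

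Quiescence genes fell less deeply, 23 of 29 tested, with 1 rise (Ccng2, 0.80) and a median change of -0.81. Btla, an inhibitory receptor, and Slfn1 fell most (-2.45 ± 0.59 and -2.40 ± 0.21), and Ypel3, Vsir and Btg1 fell by 1.84, 1.42 and 1.37. Txnip, a brake on glucose uptake, had 252, 308 and 329 FPKM in the naive libraries and 148, 127 and 97.0 FPKM in the CTL libraries and only 17.02 FPKM on average at 12 h. Cdkn1b, the p27 inhibitor of cell cycle entry, did not pass (0.23 ± 0.10, and 0.31, past the test, without CTL replicate 3), and its mean of 7.18 FPKM at 12 h was below 49.0 in naive cells and 53.5 in CTLs. Without CTL replicate 3, 4 quiescence genes rose instead of 1.

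Inhibitory receptors rose more often than they fell. Among 18 tested inhibitory receptors 10 rose and 5 fell, against 33.1% and 31.4% of all tested genes. Besides Ctla4, Lag3 rose from 6.22, 1.69 and 1.46 to 201, 136 and 82.7 FPKM (5.53 ± 0.48), Tigit by 4.64 ± 0.30 and Entpd1 (CD39) by 4.23 ± 0.43. Pdcd1 (PD-1) had 0.888, 1.32 and 1.76 FPKM in the naive libraries and 11.7, 9.37 and 1.80 FPKM in the CTL libraries (1.96 ± 0.56), and Havcr2 (Tim3) had 0.459, 0.162 and 0.216 FPKM in the naive libraries and 5.87, 8.89 and 1.63 FPKM in the CTL libraries (2.78 ± 0.48). For both receptors CTL replicate 3 was the lowest CTL library. Pdcd1 lost the call without CTL replicate 1, CTL replicate 2 or naive replicate 1, its change being 1.51 to 2.70 over the omissions of 1 library. Cd96 and Cd200 fell (-0.84 and -0.99). Klrg1, the marker of short-lived effector cells, had too few reads at both stages.

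Of 20 costimulatory receptors 8 rose and 10 fell, against 33.1% and 31.4% of all tested genes. Tnfrsf9 (4-1BB) rose from 8.98, 7.07 and 6.14 to 373, 331 and 243 FPKM (5.43 ± 0.17), and Cd28, Icos, Tnfrsf4 and Tnfrsf18 rose by 1.49, 1.46, 1.504 and 1.64. Tnfrsf25 and Cd40lg, known from naive and helper cells, fell most (-4.41 ± 0.41 and -3.50 ± 0.25). Cd27 and Cd5 are on the homing list and fell by 1.88 and 2.67.

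Chains of the IL-2, IL-12 and IL-18 receptors rose, and chains of the IL-6 and IL-7 receptors fell. Il2rb, the chain shared by IL-2 and IL-15 receptors, rose from 111, 101 and 108 to 485, 468 and 556 FPKM (2.34 ± 0.10), whereas the common chain Il2rg fell by 1.05 ± 0.08. Il12rb2 and Il18rap rose by 4.72 ± 0.12 and 2.56 ± 0.31, and Ifngr1 by 1.95 ± 0.14, while its partner Ifngr2 changed by -2.27 ± 0.21. Il6st, the signaling chain of the IL-6 family, had 230.2, 211 and 196 FPKM in the naive libraries and 22.6, 22.0 and 29.3 FPKM in the CTL libraries, a change of -2.98 ± 0.14. Il27ra, Tgfbr2 and Tgfbr3 fell as well (-2.41, -0.89 and -1.68). Over the list, 7 rose and 15 fell of 26, against 33.1% and 31.4% of all tested genes. Downstream of IL-2, Cish, Socs2, Pim1 and Pim2, all targets of STAT5, rose by 4.34 ± 0.20, 2.67 ± 0.24, 2.30 ± 0.21 and 2.12 ± 0.08, and the 8 members of the JAK, STAT and SOCS list that fell did so by less than 2-fold.

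Genes of T cell receptor signaling fell, but modestly: 19 of 30 fell, 8 of them at least 2-fold, 3 rose, and the median was -0.42. Lck and Zap70, the kinases that start the signal, went from 878, 918 and 939 to 546, 526 and 511 FPKM and from 352, 357 and 407 to 252, 223 and 199 FPKM. Dgka, which dampens diacylglycerol signals, fell by 1.75 ± 0.08. Of 22 immediate early genes 6 rose and 7 fell, against 33.1% and 31.4% of all tested genes. Egr2, Egr3 and Nr4a1 fell below their naive levels (-2.35 ± 0.48, -3.85 ± 0.19 and -1.57 ± 0.14), after means of 100.2, 32.7 and 222 FPKM at 12 h. Egr1 varied among CTLs, with 70.7, 153 and 2.15 FPKM, and did not pass. Without CTL replicate 3 it passed, with a change of 2.27.

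Mitosis genes had the largest median change of the 49 gene lists. Of 58 mitosis genes 57 rose, 56 of them at least 2-fold, and the median change was 5.22. Their summed FPKM was 498, 515 and 482 in naive cells and 6346, 7169 and 5802 in CTLs. Cdk1, the kinase of mitotic entry, had 0.879, 0.841 and 0.42 FPKM in the naive libraries and 133, 162 and 133 FPKM in the CTL libraries, a change of 6.99 ± 0.18 (limma adjusted p = 9.9e-08). Ccnb1, its cyclin, had 1.09, 0.563 and 0.375 FPKM in the naive libraries and 113, 139 and 123 FPKM in the CTL libraries, and Top2a, the topoisomerase that separates chromosomes, had 7.82, 6.05 and 5.13 FPKM in the naive libraries and 659, 837 and 705 FPKM in the CTL libraries. Mki67, the proliferation marker Ki-67, rose by 6.71 ± 0.18, and Ube2c, a ubiquitin enzyme of the anaphase-promoting complex, by 7.37 ± 0.15. In all of these the 3 CTL libraries were close to each other. Pttg1 (securin) was the exception, with 39.1, 40.7 and 33.8 FPKM in the naive libraries and 24.5, 23.9 and 20.99 FPKM in the CTL libraries (-0.59 ± 0.11). Its reads may be divided among processed copies.

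Late cell cycle promoters often carry the CHR element, the letters TTTGAA, which the DREAM and MuvB complexes bind, and CCAAT boxes bound by NF-Y. Among RefSeq promoters (GRCm38.p6), the 250 bases before the start of the gene held TTTGAA on either strand in 18 of 48 mitosis genes (37.5%), against 15.98% of all promoters and 10.96% of those of tested genes. CCAAT was found in 35 of 48 (72.9%), against 33.8% and 35.5%. Neither motif was particular to mitosis genes. TTTGAA also stood in 7 of 27 promoters of the interferon list (25.9%), and in 13.4% of those of genes that rose at least 2-fold. CCAAT also stood in 25 of 43 replication promoters (58.1%) and 15 of 24 of amino acid supply (62.5%). These are matches of letters and no measured binding, and none of the motifs searched here contains another. Windows of 30 bases from 4 of the mitosis genes with the largest rises are shown with the CHR match in capitals, on the strand of the gene, 15 to 98 bases before the start.
Ube2c (chr2:164769888-164769917, plus strand): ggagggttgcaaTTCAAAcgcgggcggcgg
Cdk1 (chr10:69352913-69352942, minus strand): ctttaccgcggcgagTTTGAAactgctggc
Top2a (chr11:99024195-99024224, minus strand): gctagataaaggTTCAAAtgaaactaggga
Mki67 (chr7:135716460-135716489, minus strand): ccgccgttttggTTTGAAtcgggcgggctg
The element reads TTTGAA in Cdk1 and Mki67 and in the opposite direction, TTCAAA, in Ube2c and Top2a.

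DNA replication genes rose in 50 of 52 cases, 43 at least 2-fold, with a median of 2.23. Rrm2, the ribonucleotide reductase subunit that limits nucleotide supply, had 4.24, 2.93 and 2.80 FPKM in the naive libraries and 250.4, 279 and 248 FPKM in the CTL libraries (6.21 ± 0.15). Mcm10, which helps to activate the replicative helicase, and Cdc6, which helps to load it, rose by 5.66 ± 0.14 and 4.35 ± 0.17. The other 2 did not pass. At 12 h the median of the replication list was already 1.77 above naive cells, while that of the mitosis list was 0.89. Upstream, 17 of 22 G1 cyclins and E2F factors rose, led by E2f8, E2f7 and E2f2 (5.15, 4.81 and 3.88), and Cdk6 rose by 3.10 ± 0.26. Ccnd1, a D cyclin that lymphocytes use little, fell by 1.87 from a low level. Inhibitors of the cycle rose in 5 of 6 cases: Cdkn2c, Cdkn1a and Cdkn2a by 4.12 ± 0.15, 3.35 ± 0.29 and 2.44 ± 0.26. An E2F site, TTTCCCGC on either strand, stood in 4 of 43 replication promoters, against 0.893% of all promoters and 1.72% of those of tested genes. It is shown in capitals for 2 of them, Cdc6 and Mcm7, where it reads in the opposite direction.
Cdc6 (chr11:98908002-98908031, plus strand): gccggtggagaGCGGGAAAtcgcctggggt
Mcm7 (chr5:138172030-138172059, minus strand): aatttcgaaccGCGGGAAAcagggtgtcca

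Most glycolysis genes rose. Of 26 genes 19 rose, 17 at least 2-fold, and 5 fell, with a median of 2.01, and the list took 0.558 ± 0.0165% (SD, n = 3) of all FPKM in naive cells and 2.79 ± 0.333% (SD, n = 3) in CTLs. Hk2, the inducible hexokinase, rose by 4.57 ± 0.13. Tpi1 had 76.0, 73.8 and 69.3 FPKM in the naive libraries and 1538, 1279.6 and 1226 FPKM in the CTL libraries, a change of 4.30 ± 0.09. Aldoc, an aldolase better known from brain, had 0.875, 1.04 and 1.22 FPKM in the naive libraries and 159, 112 and 81.4 FPKM in the CTL libraries (6.30 ± 0.22). Ldha, which turns pyruvate into lactate, went from 517, 559 and 544 to 2876, 2641 and 2768 FPKM, and the lactate exporter Slc16a3 rose by 5.61 ± 0.20. The glucose transporters Slc2a3 and Slc2a1 rose by 2.28 ± 0.21 and 1.48 ± 0.15. CTL replicate 3 was lowest and CTL replicate 1 highest in the summed level, 22174, 18823 and 17408 FPKM. Among the members that fell, Eno2, a neuronal enolase, changed by -1.76 ± 0.19 and Pfkfb3, a regulator of phosphofructokinase, by -0.49 ± 0.12.

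Mitochondrial genes rose by less. Of 76 nuclear genes of oxidative phosphorylation 69 rose and 2 fell, but 25 of the rises reached 2-fold and the median was 0.78. Cox5a, a subunit of cytochrome oxidase, went from 26.2, 24.6 and 23.4 to 60.8, 77.0 and 77.3 FPKM. In the citric acid cycle 18 of 24 rose, with a median of 0.56, and Pcx, which feeds the cycle with oxaloacetate, rose by 2.62 ± 0.14. Of 12 genes encoded by mitochondrial DNA 7 rose and 3 fell. mt-Co1, a subunit of cytochrome oxidase, had 4642, 4685 and 4563 FPKM in the naive libraries and 7753, 6547 and 5161 FPKM in the CTL libraries, and levels of these genes are uncertain, since near-identical copies lie in the nuclear genome. Fatty acid oxidation was divided, with 7 rises and 4 decreases of 18, against 33.1% and 31.4% of all tested genes. Acadl, a dehydrogenase of long chains, rose by 1.87 ± 0.12.

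Sterol synthesis rose without exception. All 24 genes rose, 23 at least 2-fold, with a median of 2.66 and a summed level of 429, 443 and 457 FPKM in naive cells and 2533, 2499.6 and 2941 FPKM in CTLs. Hmgcs1, at the start of the pathway, had 14.5, 16.6 and 15.4 FPKM in the naive libraries and 215, 243 and 279 FPKM in the CTL libraries (4.05 ± 0.13). Sqle, the squalene oxidase, rose by 3.50 ± 0.16. Srebf2, the factor that drives the pathway, rose by 1.05 ± 0.10. In fatty acid synthesis 12 of 13 rose. Scd1, a desaturase, had 0.0525, 0.0732 and 0.0585 FPKM in the naive libraries and 43.8, 43.2 and 36.3 FPKM in the CTL libraries (6.27 ± 0.13), and its relative Scd2 rose by 3.52 ± 0.09.

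CCAAT stood in 16 of the 17 sterol promoters that had a RefSeq entry (94.1%), against 33.8% of all promoters and 35.5% of those of tested genes. NF-Y, which binds this box, is known to work beside SREBP at sterol genes. The sterol element itself, searched as TCACNCCAC, was matched in 1 of 17, against 1.05% and 0.985%. Windows around the box in 4 of the genes, with CCAAT or its reverse ATTGG in capitals, read as follows.
Hmgcs1 (chr13:119690294-119690323, plus strand): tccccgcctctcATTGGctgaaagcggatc
Cyp51 (chr5:4104709-4104738, minus strand): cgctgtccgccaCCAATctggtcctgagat
Idi1 (chr13:8885576-8885605, plus strand): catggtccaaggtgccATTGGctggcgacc
Msmo1 (chr8:64733616-64733645, minus strand): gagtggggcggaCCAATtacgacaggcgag
The box lay 14 to 55 bases before the start in these promoters.

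Amino acid supply rose in 18 of 27 genes and fell in none. Psat1 and Phgdh, of serine synthesis, rose by 3.36 ± 0.10 and 1.61 ± 0.15, and Mthfd2, of the mitochondrial folate cycle, by 2.11 ± 0.13. The carrier Slc7a5, which takes up large neutral amino acids, had 58.3, 82.2 and 76.3 FPKM in the naive libraries and 242, 214 and 390.3 FPKM in the CTL libraries (2.04 ± 0.24). Trib3 and Chac1, targets of Atf4 like Asns, rose by 4.26 ± 0.25 and 3.32 ± 0.16, and Atf4 by 1.39 ± 0.15. Of 19 tRNA synthetases 17 rose, by at most 1.56.

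Most genes of ribosome biogenesis did not pass the test. Of 38 genes of ribosome biogenesis 11 rose (against 33.1% of all genes), 1 fell and 26 did not pass, with a median of 0.28. This rested on CTL replicate 3: without it 13 rose and 14 fell, and the median was -0.01. Npm1 and Ncl, nucleolar proteins, rose by 1.73 ± 0.08 and 1.64 ± 0.20. Myc had 79.7, 77.3 and 82.7 FPKM in the naive libraries and 183, 190.2 and 105 FPKM in the CTL libraries (1.06 ± 0.20), against 647, 702 and 667 FPKM at 12 h, and Mycn, with 1 read over the naive libraries, had 7.79, 13.3 and 2.80 FPKM in CTLs, a ratio of 690.4-fold (95% counting interval 124 to 27301). The median of the list at 12 h was 2.30 above naive cells.

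The cytosolic ribosome took 18.8 ± 0.487% (SD, n = 3) of all FPKM in naive cells and 17.6 ± 0.145% (SD, n = 3) in CTLs. Of its 78 genes 31 rose and 15 fell, a balance that turned to 17 and 27 with quantile normalization and to 20 and 22 without scaling, so that no direction can be given for the list. Mitochondrial ribosome genes rose in 54 of 76 cases and fell in 2 (median 0.55). Translation initiation genes rose in 25 of 40 and fell in 3, led by Eif4ebp1, the repressor of cap-dependent initiation, with 4.46, 6.21 and 6.13 FPKM in the naive libraries and 89.3, 73.9 and 76.9 FPKM in the CTL libraries (3.84 ± 0.15). Proteasome genes rose in 17 of 20 and fell in 2 (median 0.61), and genes of the unfolded protein response rose in 18 of 27 and fell in 5, with Xbp1 at 1.97 ± 0.15 and Ero1l at 2.50 ± 0.18. Genes of the PI3K, Akt and mTOR pathway had 7 rises and 8 decreases of 31, only 1 of them 2-fold (Pik3cg, 1.06 ± 0.14). Over all tested genes 33.1% rose and 31.4% fell.

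**Figure D3:**
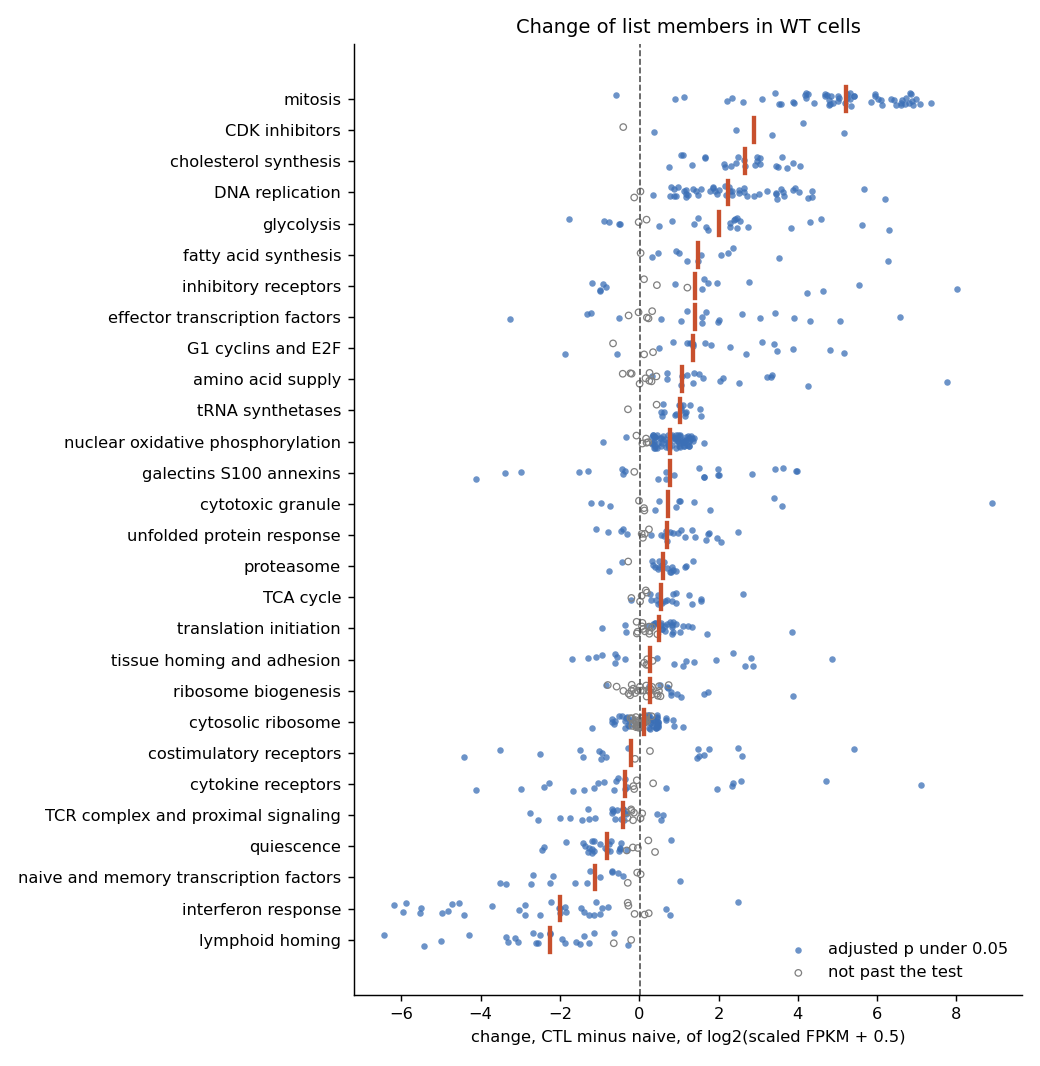
Changes (log2, CTL minus naive) of the tested members of 28 gene lists in WT cells, 1 dot per gene, filled where limma's adjusted p was under 0.05, with the median of each list as a bar and the median of all tested genes as a dashed line. Mitosis, sterol synthesis and replication genes lie almost wholly to the right and genes of the homing and interferon lists to the left.

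Interferon response genes were high in naive cells and low in CTLs. Of 37 genes 29 fell, 26 at least 2-fold, and 3 rose, with a median of -1.996. Ifit3, an antiviral RNA-binding protein, had 119, 90.8 and 52.0 FPKM in the naive libraries and 0.397, 0.213 and 1.43 FPKM in the CTL libraries (-6.18 ± 0.42, limma adjusted p = 9.5e-06). Oasl1, Oas2 and Mx2 fell by 5.95 ± 0.31, 5.51 ± 0.34 and 4.81 ± 0.34. Irf7, which amplifies the interferon signal, had 379.6, 248 and 190.5 FPKM in the naive libraries and 19.6, 17.5 and 16.8 FPKM in the CTL libraries (-3.72 ± 0.22). Naive replicate 1 was highest, with a summed level of 5173, 3672 and 2906 FPKM over the naive libraries and 1719, 1629 and 1864 FPKM over the CTL libraries, and naive replicate 1 was also highest in dendritic markers. Without naive replicate 1, 28 genes fell and 3 rose. Dendritic markers were measured in every naive library, and the part of other cells in the interferon decreases was not tested. The genes that rose belong to the interferon gamma group of GTPases: Iigp1 (2.49 ± 0.62), Igtp (0.78) and Gbp3 (0.68). Igtp and Gbp3 overlapped between the groups and lost the call without 1 of several libraries, with changes of 0.52 to 1.06 and 0.49 to 0.95 over the 6 omissions. Irf9, which carries the signal to DNA, fell by 1.86 ± 0.14.

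The interferon-stimulated response element, searched as GAAA, any 2 bases and GAAA again on either strand, stood in 14 of 27 promoters of the list (51.9%), against 2.97% of all promoters and 2.73% of those of tested genes. It is shown in capitals for 4 of the genes with large decreases, 66 to 122 bases before the start.
Ifit3 (chr19:34583397-34583426, plus strand): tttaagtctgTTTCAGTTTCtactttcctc
Ifit1 (chr19:34640794-34640823, plus strand): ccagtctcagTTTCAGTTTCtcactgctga
Isg15 (chr4:156200865-156200894, minus strand): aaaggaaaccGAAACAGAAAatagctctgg
Rsad2 (chr12:26456553-26456582, minus strand): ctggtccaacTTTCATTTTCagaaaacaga
In Isg15 the element reads in the direction of the gene and in the other 3 in the opposite direction. The ATF4 site (TGATGNAA) stood in 4 of 24 promoters of amino acid supply, against 3.45% of all promoters and 2.05% of those of tested genes. The E box (CACGTG) stood in 4 of 17 sterol promoters, against 6.02% and 8.203%, and the KLF site (CCACACCC) in 1 of 18 homing promoters, against 3.19% and 3.46%.

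Of 17 tested genes of the Bcl-2 family 8 rose and 4 fell, against 33.1% and 31.4% of all tested genes. Bcl2 rose from 34.4, 23.5 and 23.5 to 107, 113 and 136 FPKM (2.24 ± 0.17) and Bcl2l1 (Bcl-xL) by 1.65 ± 0.14, while Mcl1 fell by 1.12 ± 0.08. The pro-apoptotic genes Bcl2l11 (Bim) and Bak1 rose by 1.29 ± 0.15 and 1.32 ± 0.09, and Bmf fell by 1.27 ± 0.32. Of 20 death receptor and caspase genes 6 rose and 4 fell, against 33.1% and 31.4% of all tested genes. Of 24 galectin, S100, annexin and related genes, many of them cytoskeletal or calcium-binding, 15 rose and 8 fell, 11 and 5 of them at least 2-fold. S100a6, S100a4 and Anxa2 rose by 3.98 ± 0.19, 3.42 ± 0.23 and 3.95 ± 0.10, Lgals1 (galectin-1) by 1.99 ± 0.18 to 1195, 950.0 and 720.3 FPKM, and Vim (vimentin) by 1.98 ± 0.08. S100a8 and S100a9, granulocyte genes, had 4.86, 6.14 and 3.97 and 2.95, 5.76 and 2.61 FPKM in naive cells and no read in CTLs.

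Antioxidant genes rose in 16 of 25 cases and fell in 2, led by Prdx4 (3.34 ± 0.13) and Txn1 (3.05 ± 0.13, from 59.2, 48.4 and 44.1 to 353, 391 and 421 FPKM). Chromatin regulators split, with 16 rises and 8 decreases of 33, against 33.1% and 31.4% of all tested genes. Ezh2, the methyltransferase of the polycomb complex, rose by 2.84 ± 0.12 and Dnmt1, the maintenance DNA methyltransferase, by 1.39 ± 0.09, while Phf1, Tet1 and Cbx7 fell by 2.76 ± 0.24, 1.86 ± 0.18 and 1.85 ± 0.19. Of 25 autophagy and lysosome genes 10 fell, 2 rose and 13 did not pass, against 31.4% of all tested genes that fell, with Ctss at -1.86 ± 0.27, a protease that dendritic and myeloid cells make as well, and Gabarapl1 as the main rise (3.06 ± 0.16). Of 17 tested genes of the microRNA machinery 7 fell and 3 rose, against 31.4% and 33.1% of all tested genes. Lin28a and Lin28b had too few reads in WT cells of both stages.

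Of 14 tested genes of natural killer cell receptors 7 fell and 2 rose, Klra5 (2.06) and Klrb1c, whose groups overlapped and whose call was lost without naive replicate 2 or 3 (1.12 to 2.20 over the omissions of 1 library). Receptors of the Ly49 family (Klra genes) share sequence, and their levels are uncertain. Ncr1 and Klra8 had 8.75, 4.17 and 2.82 and 5.39, 5.41 and 4.27 FPKM in naive cells and no read in CTLs, at least 44.4-fold and 34.0-fold lower. Klrk1 (NKG2D) and Klrd1 (CD94), which are on other lists, rose by 1.76 ± 0.15 and 0.90 ± 0.10. Type 17 and type 2 cytokines were at or near 0 at both stages, and of the helper list Zbtb7b rose by 2.32 ± 0.31 to 27.7, 23.1 and 12.8 FPKM.

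Values of the 12 h libraries are given side by side with those of CTLs, since the comparisons share the naive libraries. The 12 h cells were stimulated in another way, so that time and stimulus cannot be told apart. Relative to naive cells, the medians at 12 h and in CTLs were 2.30 and 0.28 for ribosome biogenesis, 1.76 and 1.03 for tRNA synthetases, and 1.56 and 0.61 for the proteasome. These groups were higher at 12 h than in CTLs. Glycolysis (1.12 and 2.01), sterol synthesis (1.69 and 2.66) and mitosis (0.89 and 5.22) were higher in CTLs than at 12 h. Medians of the homing list were -3.31 at 12 h and -2.25 in CTLs, and those of the interferon list -2.96 and -1.996. Both medians were thus below naive cells at both times. Gene by gene, the median of CTL minus 12 h was 0.28 for homing and 0.088 for interferon genes, and single genes went either way, such as Ccr7, with 340.4, 216 and 237 FPKM at 12 h and less in CTLs. The galectin, S100 and annexin list went below naive cells at 12 h (-1.80) and above them in CTLs (0.78).

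**Figure D4:**
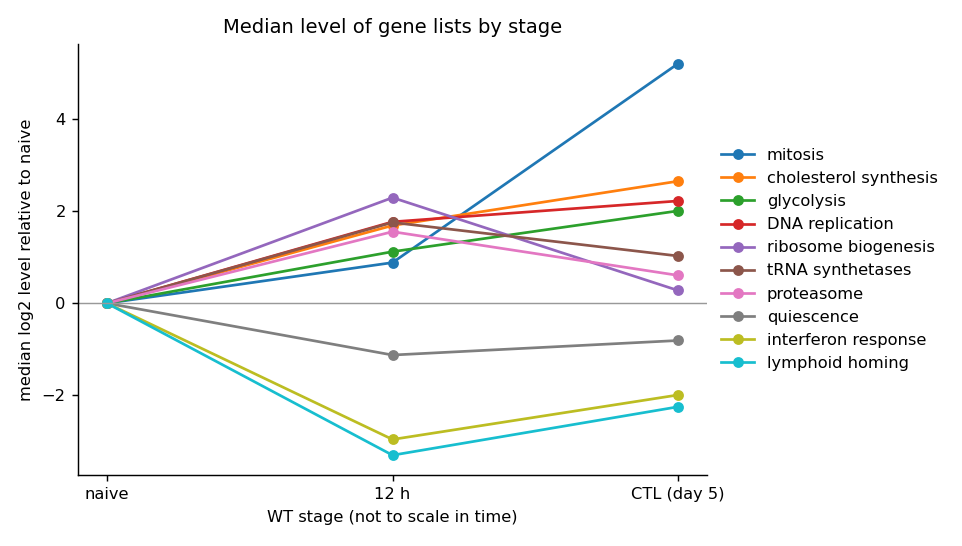
Median log2 level relative to WT naive cells of 10 gene lists at 12 h and in CTLs (day 5), WT libraries only, each point the median over the tested genes of a list. Ribosome biogenesis is highest at 12 h, and mitosis, glycolysis and sterol synthesis are highest in CTLs. Medians of the homing and interferon lists lie below naive cells at both times. The 12 h cells were stimulated in another way than the CTLs.

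The same change was measured in independent libraries of the transgenic mice. In Lin28bTg cells 67.9% of 13631 tested genes were called, and in Let-7Tg cells 63.4% of 13091. Of the genes that rose in WT cells and were tested in both, 86.6% rose in Lin28bTg and 88.0% in Let-7Tg cells, and of those that fell 82.3% and 85.6% fell. The opposite direction was called in Lin28bTg cells for 31 genes that rose and 8 that fell in WT cells, and in Let-7Tg cells for 4 and 4. Seen from the transgenic lists, the shares were 80.4% and 81.5% for Lin28bTg and 89.5% and 86.0% for Let-7Tg. Not every gene list had medians of 1 sign. The median of tissue homing and adhesion was 0.28 in WT, -0.35 in Lin28bTg and 0.77 in Let-7Tg cells. Small medians also had the other sign in Lin28bTg cells for immediate early genes (-0.08, 0.09 and -0.14) and for PI3K, Akt and mTOR genes (-0.08, 0.15 and -0.12).

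The size of the change differed from WT for 1946 of 14363 genes in Lin28bTg cells (13.5%), with 382 differences upward (2.66%) and 1564 downward (10.9%), by the interaction term in limma. Perforin had the smallest adjusted p among the upward ones. In Lin28bTg cells Prf1 went from 33.8, 36.9 and 29.9 to 171, 307 and 254 FPKM, a rise of 3.003 where WT cells fell by 1.22, a difference of 4.21 ± 0.30 (limma adjusted p = 3.3e-07). Esm1, a secreted proteoglycan gene, reached 9.31, 12.04 and 9.56 FPKM in Lin28bTg CTLs against 0.865, 0.633 and 0.233 FPKM in WT CTLs. The downward differences held 54 of the 58 mitosis genes and 39 of the 52 replication genes. Stmn1, a microtubule regulator of dividing cells, rose by 5.15 in WT and by 1.26 in Lin28bTg cells, a difference of -3.90 ± 0.20. Its naive level was 134, 169 and 214 FPKM in Lin28bTg mice and 18.1, 16.9 and 17.8 FPKM in WT mice, and its CTL level 432, 286 and 357 and 632, 588 and 564 FPKM. Uhrf1 and Pclaf also started higher in Lin28bTg naive cells. The summed mitosis level was 916, 1068 and 1398 FPKM in Lin28bTg naive libraries and 6783, 5154 and 5278 FPKM in Lin28bTg CTLs. Naive Lin28bTg libraries also held more RNA of other cells, with 216, 1458 and 740.3 FPKM of myeloid markers, and its part in the differences was not tested.

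Let-7Tg cells differed from WT in 33 genes (0.23%), 24 upward (0.167%) and 9 downward (0.0627%). Asns rose to 51.2, 41.9 and 33.8 FPKM in Let-7Tg CTLs, less than in WT CTLs (difference -1.62 ± 0.20, limma adjusted p = 0.005). Slc7a3, a carrier of cationic amino acids, and Wnt10b rose in WT cells by 2.63 and 3.17. Their changes in Let-7Tg cells were 0.45 and 0.23, and that of Wnt10b did not pass the test there. The upward differences were led by the globin genes Hba-a1 and Hba-a2, which were lower in Let-7Tg than in WT naive libraries. Hba-a2 had 3.32, 0.407 and 0.275 FPKM in Let-7Tg and 74.2, 61.4 and 39.4 FPKM in WT naive libraries. The 2 alpha globin genes are near-identical. Without CTL replicate 3 of WT the count of differing genes was 139, and without CTL replicate 3 of Let-7Tg it was 64.

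**Figure D5:**
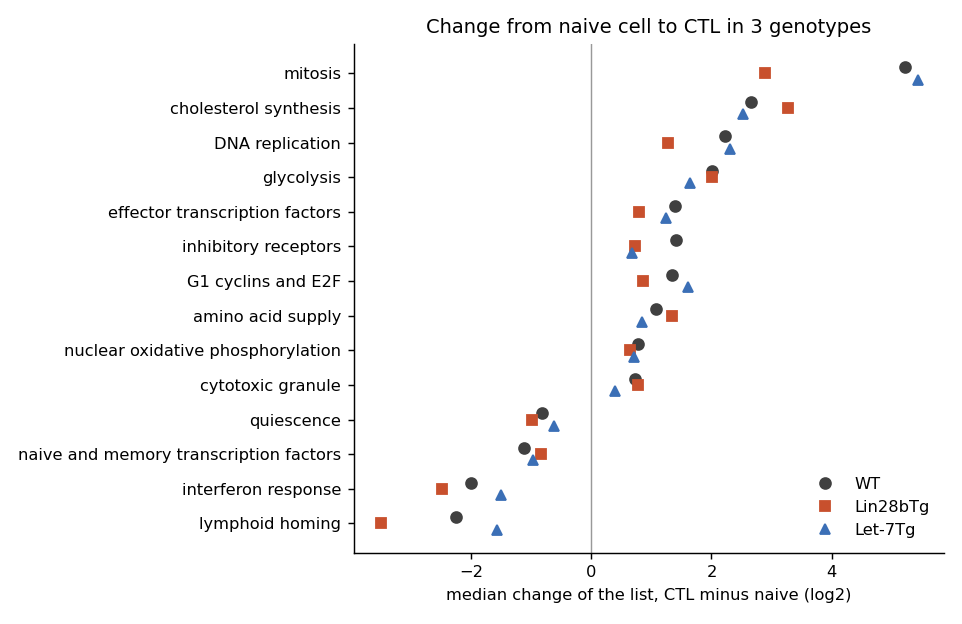
Median log2 change, CTL minus naive, of 14 gene lists in WT, Lin28bTg and Let-7Tg cells, 3 libraries per genotype and stage. Medians of the 3 genotypes have the same sign for every list shown, and the mitosis median was lower in Lin28bTg (2.88) than in WT (5.22) and Let-7Tg cells (5.43).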

How the data were processed

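RNA of P14+ T cells of 3 genotypes was sequenced at 3 stages, 3 libraries each. The authors aligned reads to GRCm38 (mm10) with TopHat2 2.0.9 and Bowtie2 2.0.6, counted them per gene with HTSeq 0.6.1 and deposited FPKM, which are relative to the reads of each library and the length of the gene. Columns of the authors' own comparisons hold fold changes and p-values and were not used. Strandedness and preparation batches are not given in the sources used here, so antisense and overlapping genes may share reads. The study calls the samples biological replicates without naming animals, and p-values measure the spread between these samples.

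Tables were joined by gene ID. Reads were recovered from the FPKM (100.0% of 462839 values were whole within 0.0001 reads). Genes with the equivalent of at least 10 reads in at least 3 of the libraries compared and 15 reads over them were tested. FPKM were scaled between libraries by the trimmed mean of M values (30% of ratios and 5% of levels trimmed), 0.5 was added, and log2 values were fitted in limma 3.58.1 (R 4.3.3) with an intensity trend. P-values are two-sided and Benjamini-Hochberg adjusted over all tested genes, and genotypes were compared by interaction terms. A gene with no read in a whole group was set against 3 reads per library. Ratios with 1 to 3 reads in a group have exact 95% intervals. Floors and intervals cover counting error only. An exact permutation test of 3 against 3 libraries cannot go below p = 0.1 and was not used.

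Members and the 49 gene lists were chosen with earlier results of these data known. Named genes are the 10 largest rises and decreases among called genes without overlap and with a mean of at least 10 FPKM in the higher group, the 5 highest genes of each stage, list members, the 3 genes per genotype and direction with the smallest adjusted p of the interaction, and genes of the study's text. Gene coordinates are those of GENCODE M21 (34490 of 35275 IDs found), and promoters those of RefSeq. Scripts were tested on simulated data with known changes. Alternatives were other scalings, offsets, filters and models, a replicate block, voom on the recovered reads, and leaving out each library. Some members of the lists are not reported here by name.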

Additional observations from a re-analysis of the deposited data

Results flagged for a closer look

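The stage change differed between Lin28bTg and WT cells by the interaction term of limma for 1946 genes, and between Let-7Tg and WT cells for 33 genes, each at an adjusted p under 0.05. For Lin28bTg the 3 upward differences with the smallest adjusted p were those of Prf1 (4.21 ± 0.30), Esm1 (3.44 ± 0.37) and A530021J07Rik (2.31 ± 0.27), and the 3 downward ones those of Stmn1 (-3.90 ± 0.20), Uhrf1 (-2.43 ± 0.14) and Pclaf (-4.08 ± 0.24), as log2 differences with their SE. Pclaf had 19.9, 28.4 and 38.8 FPKM in Lin28bTg naive libraries and 1.41, 0.905 and 0.904 FPKM in WT naive libraries.

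For Let-7Tg the upward differences were led by Hba-a1 (6.40 ± 0.81), Gm8909 (1.501 ± 0.19) and Hba-a2 (5.49 ± 0.74), and the downward ones by Asns (-1.62 ± 0.20), Slc7a3 (-2.18) and Wnt10b (-2.94 ± 0.44). Of the other genes named in the text, Dapl1 (1.92) and Ifitm1 (-3.56) differed as well.

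The other genes named in the text whose change differed between Lin28bTg and WT cells are given as Lin28bTg minus WT on the log2 scale. Among the cell cycle and replication genes, the difference was negative for Top2a (-4.09), Mki67 (-3.78), Ube2c (-3.50), Rrm2 (-3.50), Cdk1 (-3.44), Mcm10 (-3.43), E2f2 (-3.01), Cdc6 (-2.92), Ccnb1 (-2.85), E2f8 (-2.80), Cdkn2c (-2.49), Ccnd1 (-2.11), E2f7 (-1.83) and Mcm7 (-1.13). It was positive for Pttg1 (0.68). Among genes of homing, naive identity and quiescence, the difference was negative for Tcf7 (-4.11), Ccr7 (-3.85), Dapl1 (-2.37), Klf3 (-1.39), Slfn1 (-1.35), Cd5 (-0.85) and Fut7 (-0.75). Among receptors, signaling genes and effector factors, the difference was negative for Cd200 (-2.19), Tnfrsf4 (-2.16), Zeb2 (-2.11), Irf4 (-1.80), Il2ra (-1.64), Socs2 (-1.61), Zbtb7b (-1.57), Tigit (-1.52), Tbx21 (-1.41), Klrk1 (-1.05) and Cd8b1 (-0.50). It was positive for Havcr2 (2.05), Klra5 (1.95), Egr3 (1.95), Cd40lg (1.82), Nr4a1 (1.22), Tgfbr2 (1.06) and Rab27a (0.47). Among metabolic, stress and chromatin genes, the difference was negative for Ctss (-2.57), S100a9 (-2.51), S100a8 (-2.49), S100a6 (-2.01), Eno2 (-1.77), S100a4 (-1.66), Prdx4 (-1.55), Gabarapl1 (-1.34), Pfkfb3 (-1.20), Anxa2 (-1.12), Ezh2 (-1.04), Txn1 (-0.96), Vim (-0.94), Tpi1 (-0.80), Xbp1 (-0.78), Gapdh (-0.49) and Dnmt1 (-0.43). It was positive for Msmo1 (0.88), Hmgcs1 (0.64) and Srebf2 (0.50). Among markers of other cells and interferon genes, the difference was negative for Iigp1 (-3.36), Lyz2 (-3.15), H2-Eb1 (-2.65), Cd74 (-2.34), H2-Aa (-2.25) and Gbp3 (-1.42). Among the other named genes, the difference was negative for Pimreg (-3.10), Apol7c (-1.87) and Fads2 (-1.04). It was positive for Slc7a3 (1.30).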

How the results depend on the processing

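Counts of called genes over a whole comparison stayed within 1.5 times the reported ones under every other scaling, offset, filter and model, and under every omission of 1 library except for the 33 genes that differed between Let-7Tg and WT cells. These became 11 to 139 (1230 genes had an unadjusted p under 0.05). WT calls ranged from 7662 to 8930 over the alternatives and from 7185 to 8925 over omitted libraries. Without scaling, WT calls were 3821 up and 4666 down, and with quantile normalization 3807 up and 4680 down, the median of all genes moving from 0.01 to -0.09 in both. In Lin28bTg cells 4698 up and 4561 down became 3768 up and 5502 down without scaling. Of 227 named genes tested in WT cells, 215 kept their direction and call throughout.

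Signs turned for 4 genes that did not pass the test. Cd3e was -0.081 without scaling, -0.16 with quantile normalization and -0.060 to 0.091 over omitted libraries. Ifng was 0.16 with an offset of 0.1 FPKM, 0.28 with voom and -0.54 to 0.48 over omitted libraries. Egr1 was -0.64 to 2.27 and Ly6c2 -0.69 to 0.58 over omitted libraries. List counts moved further. Besides the ribosomal lists described above, PI3K, Akt and mTOR genes went from 7 up and 8 down to 4 up and 11 down without scaling, and chromatin regulators from 16 up and 8 down to 13 up and 13 down. The cause was not tested.

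Libraries with the same replicate number did not deviate together (correlations of -0.23, -0.07 and -0.10). Those of libraries with unlike numbers ran from -0.14 to 0.26. The labels do not say whether the numbers pair the samples, and correlations among so few libraries cannot decide it. With a replicate block, 7866 genes were called in WT, 8934 in Lin28bTg and 7886 in Let-7Tg cells, and 2099 and 39 genes differed from WT in Lin28bTg and Let-7Tg cells. For the 22366 genes with too few reads for the test, a change was not detectable at this depth.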
